A study of Mus musculus with 661 samples.

Results

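The 10 genes described here are used to tell arterial from venous endothelial cells: Sox7, Sox17, Sox18, Gja4, Gja5, Bmx, Efnb2, Ephb4, Nr2f2 and Emcn. They were taken by symbol from the 45808 gene symbols of the count table, and all 10 were found. Levels were followed across 307 endothelial cells of 661 sequenced cells, and the 354 mesenchymal cells of the same table served as background.

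The cells were sorted from the bones of wild-type C57BL/6 mice of both sexes and sequenced singly on plates with Smart-Seq2, which reads whole transcripts without molecular identifiers. Young mice were about 8 weeks old and old mice about 24 months old, and a legend of the study names 3 young and 4 old mice for these plates. Arteriolar endothelial cells (AEC) were sorted from the endosteal bone fraction as CD31+ cells with high Sca-1 and low CD105, and sinusoidal endothelial cells (SEC) from the central marrow as CD31+ cells with low Sca-1 and high CD105. Blood cells and red cell precursors had been gated out with CD45 and Ter119. There were 84 young AEC, 82 old AEC, 70 young SEC and 71 old SEC.

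The labels name no mouse for any cell, so each age and population counts as 1 sample, no difference has a replicate check, and no test was made. Levels are CPM, the summed counts of a gene scaled by the summed nuclear counts of a group, with exact 95% Poisson intervals. Shares of cells carry exact 95% Clopper-Pearson intervals. Both cover counting error alone, since PCR reads are not independent molecules and the spread between mice is not in them. A difference was called past 2-fold on the log2(CPM + 1) scale. Total counts per endothelial cell ran from 77605 to 821438, with medians of 417873 in young AEC, 424026 in old AEC, 319565 in young SEC and 306315 in old SEC.

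Library numbers fell into 4 separate runs. All SEC were in run 4, while AEC were spread over all 4 runs, with 24 young and 23 old AEC in run 4. Population and run would otherwise be mixed, so AEC were set against SEC within run 4, and the AEC of both ages were compared over all runs with each run given beside the pooled value.

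Arterial fate is set early in vessel growth, when VEGF and Notch signalling turn on a set of genes that veins keep low. The SoxF transcription factors Sox7, Sox17 and Sox18 act in this step and partly replace one another. Gja4 and Gja5 encode connexins 37 and 40, the gap junction proteins that couple arterial endothelial cells, Bmx is a Tec family kinase of arterial endothelium, and Efnb2 is the ephrin ligand that marks arteries. Its receptor Ephb4 marks veins, the nuclear receptor Nr2f2 (COUP-TFII) holds venous identity by keeping Notch signalling low, and Emcn encodes endomucin, a sialomucin on the surface of capillary and venous endothelium.

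In GENCODE annotation of GRCm38, all 10 are protein-coding genes. The SoxF genes lie at chr14:63943673-63950732 (Sox7), chr1:4490931-4497354 (Sox17) and chr2:181669836-181671640 (Sox18). The connexin genes lie at chr4:127311421-127314039 (Gja4) and chr3:96904693-97077416 (Gja5), Bmx at chrX:164192842-164258193 and Efnb2 at chr8:8617434-8661242. Ephb4 lies at chr5:137350109-137378669, Nr2f2 at chr7:70351944-70366735 and Emcn at chr3:137341067-137432185. Exons of 4 members overlap exons of a gene on the opposite strand: Gm37587 over 804 bases of Sox17, B130024G19Rik over 643 bases of Nr2f2, Gpr89 over 165 bases of Gja5 and Zan over 33 bases of Ephb4. Reads were counted without strand, so reads from those stretches cannot be told apart by strand.

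Young AEC and young SEC differed most in the connexins, Bmx and Efnb2. In run 4, 6 of the 10 genes were past 2-fold higher in young AEC (Sox7, Sox17, Gja4, Gja5, Bmx and Efnb2), where 17.3% of the 11908 genes tested were past 2-fold in that direction. Nr2f2 alone of the 10 was past 2-fold higher in young SEC, where 24.9% of all genes were. Sox18, Ephb4 and Emcn were within 2-fold. All 10 genes passed the filter on low counts, which was 100 counts over both groups in at least 5 cells. The median log2 ratio was 1.87 for the 10 genes and -0.10 for all genes tested.

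Gja4 ran from 0 to 2020 CPM over the 24 young AEC of run 4 with a median of 0, and from 0 to 235 CPM over the 70 young SEC with a median of 0. Its pooled level was 253 CPM (241 to 265) in young AEC and 3.01 CPM (2.33 to 3.83) in young SEC, a log2 ratio of 5.98. A single young SEC held 95.5% of the 66 Gja4 counts in that group. One AEC held 37.7% of the Gja4 counts of the young AEC in run 4, the 2 highest of these AEC are in cluster E2, and without clusters E1 and E2 the log2 ratio was 4.47. Gja5 stood at 130.2 CPM (122 to 139) in young AEC and at 0.684 CPM (0.383 to 1.13) in young SEC, where 15 counts were seen in all, a log2 ratio of 6.28. One AEC held 69.8% of the Gja5 counts of the young AEC in run 4, and without the highest cell of each group the log2 ratio was 4.85. So both connexins were high in a part of the AEC and near 0 in nearly all young SEC.

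Bmx was at 53.95 CPM (48.4 to 59.9) in young AEC of run 4 and at 2.69 CPM (2.05 to 3.47) in young SEC, a log2 ratio of 3.90. Efnb2 was at 209.6 CPM (199 to 221) and 15.6 CPM (13.9 to 17.3), a log2 ratio of 3.67. Efnb2 was the more widely shared of the pair, with a median of 98.9 CPM per young AEC in run 4 against 0 for Bmx. Per kilobase of exon, the scale on which levels of different genes can be compared, Efnb2 in all young AEC (34.6 CPM per kb) was close to Gja5 (33.1) and above Bmx (23.3), while Gja4 stood at 232 CPM per kb.

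The SoxF genes differed among themselves. Sox17 was at 499 CPM (482 to 517) in young AEC of run 4 and 84.5 CPM (80.7 to 88.4) in young SEC, a log2 ratio of 2.55, and 1 young SEC held 49.2% of the Sox17 counts of its group. Sox7 was at 117 CPM (109 to 126) and 50.4 CPM (47.5 to 53.5), a log2 ratio of 1.20. Sox18 pointed the other way in run 4, with 251 CPM (239 to 263) in young AEC and 485 CPM (476 to 494) in young SEC. Its log2 ratio of -0.95 was just short of the 2-fold limit. It passed the limit without the highest cell of each group (-1.05) and between E3 with E4 and E7 in run 4 (-1.61). Run 4 had the lowest Sox18 of young AEC, which stood at 517, 289 and 407 CPM in runs 1, 2 and 3. The run 1 value was thus above that of young SEC. In young SEC, Sox18 had the highest level per kilobase of the 10 genes, at 299 CPM per kb, against 17.7 for Sox17 and 15.3 for Sox7.

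Of the 3 genes known as venous, Nr2f2 separated the populations. It ran from 0 to 1007 CPM over young SEC with a median of 229, and from 0 to 589 CPM over young AEC of run 4 with a median of 15.3. The pooled levels were 274 CPM (268 to 281) and 87.7 CPM (80.6 to 95.2), a log2 ratio of -1.64. Ephb4 was nearly level, at 242 CPM (229.9 to 254) in young AEC and 236 CPM (229.7 to 243) in young SEC, a log2 ratio of 0.03. Emcn was at 538 CPM (520.4 to 556) and 628 CPM (617 to 638), a log2 ratio of -0.22. Young AEC of runs 1, 2 and 3 had more Emcn than those of run 4, at 886, 1073 and 704 CPM, and more than young SEC. In these sorted cells Ephb4 and Emcn, known as venous, thus did not differ past 2-fold between young AEC and young SEC.

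Over all 84 young AEC, the order of levels per kilobase was Sox18, Gja4, Emcn, Sox7, Sox17, Ephb4, Efnb2, Gja5, Bmx and Nr2f2, from 234 down to 5.82 CPM per kb. The order is one of the pooled runs, as Gja4 ran from 56.2 to 472 CPM per kb over the runs and Sox18 from 155 to 319. In young SEC the order was Sox18, Emcn, Ephb4, Nr2f2, Sox17, Sox7, Efnb2, Gja4, Bmx and Gja5, from 299 down to 0.119 CPM per kb. Nr2f2 was thus the lowest of the 10 in AEC and the 4th in SEC, at 31.8 CPM per kb.

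**Figure D1:**
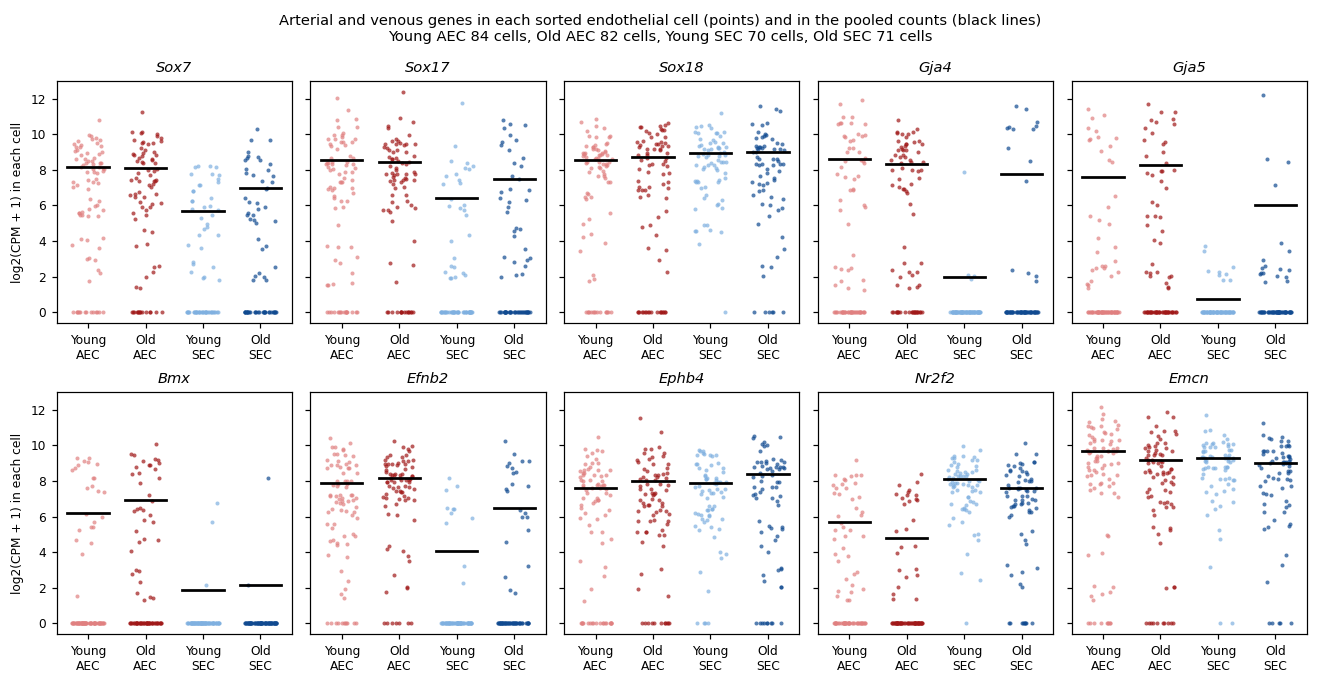
CPM of each gene in each sorted endothelial cell on a log2(CPM + 1) axis (points) and in the summed counts of each group (black lines), for young AEC (84 cells), old AEC (82), young SEC (70) and old SEC (71) over all runs. Gja4 and Gja5 lie at or near 0 in nearly all young SEC while a few old SEC reach the level of AEC, and Nr2f2 is present in most SEC and in a minority of AEC.

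In old mice the same comparison gave a shorter list. Within run 4, 4 of the 10 genes were past 2-fold higher in old AEC than in old SEC (Sox7, Sox17, Bmx and Efnb2), against 15.3% of the 12082 genes tested, and Nr2f2 was past 2-fold higher in old SEC, against 27.6% of all genes. The median log2 ratio was 0.24 for the 10 genes and -0.22 for all genes. Gja4 was at 186 CPM (175 to 197) in old AEC and 212 CPM (206 to 219) in old SEC, a log2 ratio of -0.19, and Gja5 at 105 CPM (97.4 to 113) and 65.1 CPM (61.7 to 68.7), a log2 ratio of 0.68. Both connexins, which were past 2-fold apart in young mice under each alternative, were thus within 2-fold between the sorted populations of old mice. For Gja5 this rested on 1 cell, which held 84.5% of the old SEC counts: without the highest cell of each group its log2 ratio was 2.47, while that of Gja4 was -0.11. By cluster the connexins were far apart in old mice too. In run 4, Gja4 was at 202 CPM in old AEC of E3 to E5 and at 0.232 CPM in old SEC of E7. Gja5 was at 124 and 0.697 CPM in the same groups.

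The genes past 2-fold in old mice had the same direction as in young mice. Bmx was at 72.2 CPM (65.8 to 79.1) in old AEC and 3.43 CPM (2.68 to 4.32) in old SEC, a log2 ratio of 4.05, and 98.6% of its 71 counts in old SEC came from 1 cell. Efnb2 had a log2 ratio of 1.52, Sox7 of 1.71 and Sox17 of 1.47. Nr2f2 was at 38.8 CPM (34.1 to 43.9) in old AEC and 194 CPM (188 to 199.8) in old SEC, a log2 ratio of -2.29. Sox18 (-0.86), Ephb4 (-0.46) and Emcn (-0.21) were again within 2-fold. Sox18 was at -1.08 without the highest cell of each group. Between E3 with E4 and E7 in run 4, Sox18 was at 0.84 and Emcn at -1.12. That comparison mixes sorts, as E3 and E4 hold 2 and 6 old SEC. Run 4 had the lowest Sox18 of old AEC, at 276 CPM against 482, 464 and 409 CPM in runs 1, 2 and 3. Emcn of old AEC was at 446 CPM in run 4, against 332, 663 and 816 CPM in runs 1, 2 and 3.

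Old SEC carried more of 5 arterial genes than young SEC. Sox7, Sox17, Gja4, Gja5 and Efnb2 were past 2-fold higher in old SEC, 5 of the 10 genes against 13.1% of the 12982 genes tested, and none of the 10 was past 2-fold lower, against 7.56% of all genes. Gja4 ran from 0 to 235 CPM over young SEC and from 0 to 3091 CPM over old SEC, with a median of 0 in both, and its pooled level was 3.01 against 212 CPM, a log2 ratio of 5.73. Gja5 had a log2 ratio of 5.30, from 0.684 to 65.1 CPM, which was 2.94 without the highest cell of each group. Efnb2 went from 15.6 CPM in young SEC to 89.8 CPM (85.8 to 94.0) in old SEC, a log2 ratio of 2.46. Sox7 and Sox17 were nearer to the 2-fold limit, from 50.4 to 123 CPM and from 84.5 to 181 CPM. Bmx was not among the 5 genes, at 2.69 and 3.43 CPM.

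The deposited clusters of the study, named E1 to E7 here, place these counts. E7 holds 59 of 70 young SEC and 44 of 71 old SEC, and clusters E3, E4 and E5, which hold most AEC of both ages, hold 0 young SEC and 10 old SEC. Another 12 old SEC are in E6, against 2 young SEC. The 10 old SEC in E3 to E5 held 85.2% (84.1 to 86.3%) of the Gja4 counts of all old SEC, 97.7% (96.8 to 98.4%) of the Gja5 counts and 98.6% (92.4 to 99.96%) of the Bmx counts. For Efnb2 they held 40.8%, and the 12 cells in E6 held 53.8%. The 44 old SEC in E7 held 0.0682% of the Gja4 counts, 0.667% of those of Gja5 and 5.27% of those of Efnb2.

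In those 10 old SEC, Gja4 ran from 0 to 3091 CPM with a median of 1292 and Sox17 from 0 to 1752 CPM with a median of 777, and 8 of the 10 carried each of them at 10 CPM or more. Nr2f2 was at 28.1 CPM (22.03 to 35.2) there, close to the 24.2 CPM of the 20 old AEC from E3 to E5 in run 4. Efnb2 was close too, at 288 and 267 CPM, but other members were further apart. Gja4 was at 1422 CPM in the 10 old SEC against 202 CPM in those old AEC. Sox18 was at 846 against 299 CPM and Gja5 at 500 against 124 CPM. Bmx and Sox7 were lower in the 10 old SEC, at 26.5 against 85.1 CPM and 235 against 477 CPM. Both gate markers of the 10 cells were nearer to those old AEC than to old SEC of E7. Ly6a, which encodes Sca-1, was at 1681 CPM, against 1649 CPM in those old AEC and 209 CPM in old SEC of E7. Eng, which encodes CD105, was at 1502 CPM, against 1803 and 2715 CPM in the same order. The scavenger receptor gene Stab2 was at 7.58 CPM, against 5.00 and 8758 CPM. Summed mural markers of the 10 cells came to 807 CPM, with Rgs5 the most abundant at 629 CPM and Cspg4 at 0. They came to 47.2 CPM in old SEC of E7 and 84.6 CPM in old AEC of E3 to E5 in run 4. None of the 10 cells carried as many as 50% of the mural markers at 10 CPM. Hematopoietic markers summed to 528 CPM, led by Laptm5 at 389 CPM with Ptprc, Tyrobp, Cd52, S100a8, Cd79a and Cd3e at 0. They summed to 77.9 CPM in old SEC of E7 and 10.0 CPM in those old AEC. Mesenchymal markers of the 10 cells summed to 8332 CPM, of which Cxcl12 made 8058 CPM with Pdgfra and Lum at 0. They summed to 939 CPM in old SEC of E7 and 3768 CPM in those old AEC. At least 50% of the core endothelial genes were carried by 8 of the 10 cells. In the 12 old SEC of E6, which held most of the Efnb2 counts, hematopoietic markers summed to 588 CPM, led by Coro1a at 168 CPM, and 1 cell carried at least 50% of them. The part of the gate or of other cells in these counts was not tested.

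Within E7 the ages were within 2-fold for the connexins, Sox17 and Efnb2. Gja4 was at 0.162 CPM (0.0334 to 0.473) in young and 0.232 CPM (0.0479 to 0.679) in old E7 cells, 3 counts each time, and Gja5 at 0.810 and 0.697 CPM. Sox17 was at 94.8 and 90.0 CPM, and Efnb2 at 12.0 and 7.59 CPM. Bmx was at 2.10 CPM in young and 0.0774 CPM, 1 count, in old E7 cells, and 1 young cell held all 39 of its counts. Sox7 stood at 43.4 CPM (40.5 to 46.5) in young and 115 CPM (109 to 121) in old E7 cells, a log2 ratio of 1.39, and E7 held 58.4% of the Sox7 counts of old SEC. One old cell held 27.2% of those E7 counts, and the share of thinned E7 cells with Sox7 was 25 of 61 young and 23 of 43 old cells. The clusters were built from these same counts, so values by cluster are a description.

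Among venous genes, SEC of both ages were within 2-fold. Nr2f2 was at 274 CPM in young and 194 CPM in old SEC, a log2 ratio of -0.50, and at 310.4 CPM (302 to 319) and 252 CPM (243 to 260) in E7. Emcn had a log2 ratio of -0.28 and Ephb4 of 0.50, with 236 CPM in young and 334 CPM (326 to 342) in old SEC. Sox18 was at 485 and 503 CPM, a log2 ratio of 0.05. Among SEC in E7, Sox18 was at 487 CPM (477 to 497) in young and 349 CPM (339 to 359) in old cells.

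In AEC no member was past 2-fold between ages. Over all 4 runs, 0 of the 10 genes were past 2-fold higher in old AEC, against 9.33% of the 14042 genes tested, and 0 were past 2-fold lower, against 11.7% of all genes. Nr2f2 came nearest, at 50.2 CPM (47.9 to 52.6) in young and 26.4 CPM (24.7 to 28.1) in old AEC, a log2 ratio of -0.90. It was lower in old AEC in all 4 runs, with log2 ratios of -1.17, -0.48, -0.97 and -1.16. In run 3, 1 cell held 62.5% of the young and 1 cell 79.8% of the old Nr2f2 counts. In run 1 these shares were 47.3% and 49.3%. Without clusters E1 and E2 the pooled ratio of Nr2f2 was -1.19, past the limit. In E3 with E4 it was at 28.5 CPM in young and 18.04 CPM in old cells.

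Bmx and Efnb2 were higher in old AEC in all 4 runs. Bmx was at 72.2 CPM (69.4 to 75.1) in young and 120.3 CPM (117 to 124) in old AEC over all runs, a log2 ratio of 0.73, with run values from 0.37 to 1.297. Single cells weighed on the Bmx values, as 1 young AEC held all 327 young counts of run 2. The highest old AEC held 50.3%, 35.2% and 37.8% of the old counts in runs 2, 3 and 4. The ages were also spread differently over clusters, with 24 young and 34 old AEC in E3, where Bmx was highest. In E4, Bmx was at 46.6 CPM in young and 33.7 CPM in old cells. The part of single cells or clusters in the run values was not tested. Efnb2 was at 237 and 285 CPM, a log2 ratio of 0.26, with run values from 0.14 to 0.35. Sox7, Sox17, Sox18, Gja4, Gja5, Ephb4 and Emcn pointed both ways over the runs. Gja5 had a pooled log2 ratio of 0.71 and run values from -0.30 to 1.34, Gja4 a pooled ratio of -0.30 and run values from -0.77 to 1.66, and Sox7 a pooled ratio of -0.08 and run values from -0.92 to 1.78.

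Emcn was at 825 CPM (816 to 835) in young and 589 CPM (581 to 597) in old AEC, a log2 ratio of -0.49. It was lower in old AEC in 3 of the 4 runs, with run values from -1.41 to 0.21. Ephb4 had a pooled log2 ratio of 0.35, Sox18 of 0.14 and Sox17 of -0.10, each with runs on both sides of 0. Run 4 was the run in which young AEC had the lowest Sox7, 117 CPM against 215, 338 and 446 CPM in runs 1, 2 and 3, so the young AEC over SEC ratio of Sox7 rose to 2.49 when all runs were used.

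**Figure D2:**
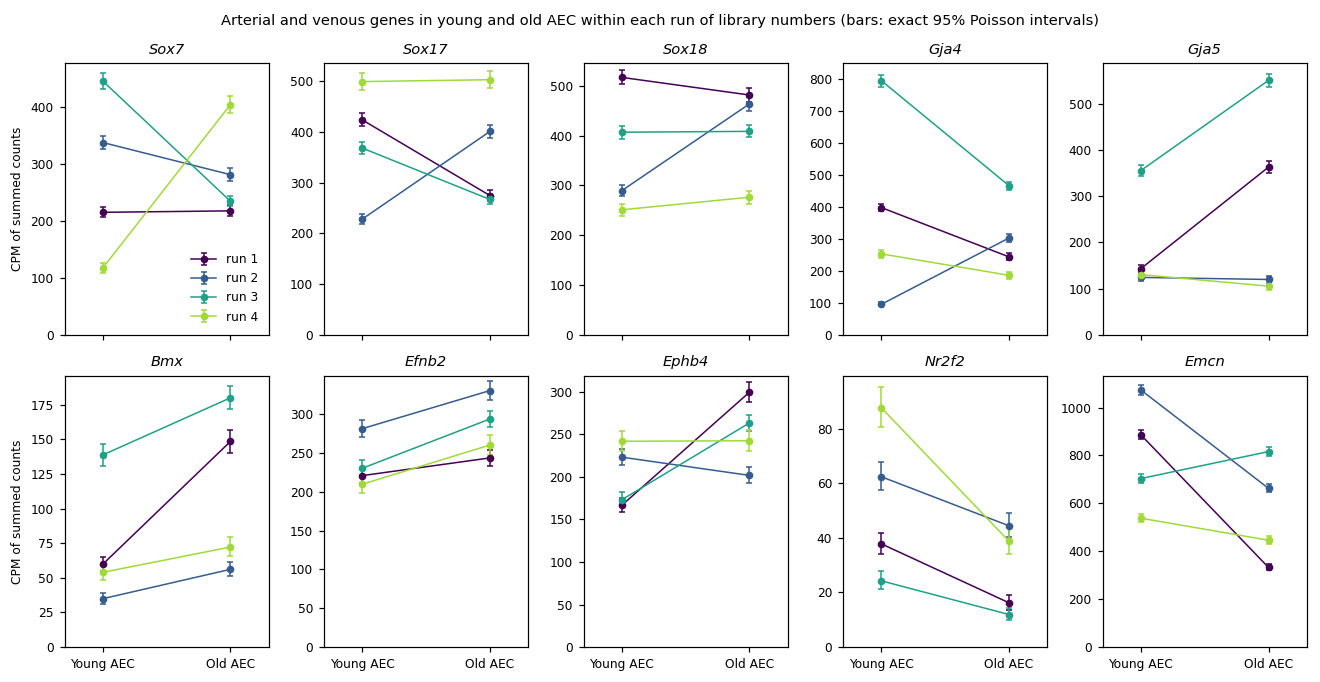
CPM of each gene in the summed counts of young and old AEC within each of the 4 runs of library numbers, with exact 95% Poisson bars. Nr2f2 is lower and Bmx and Efnb2 are higher in old AEC in all 4 runs, while Sox7, Sox17, Gja4 and Gja5 cross.

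Shares of cells were taken after each cell was thinned to 100000 nuclear counts, which left out 1 young AEC and 1 old SEC. Shares of AEC are over all 4 runs here and below, while all SEC are in run 4, so values of run 4 alone are given for the genes that differ most. Efnb2 was carried by 81.9% (72.0 to 89.5%) of young and 87.8% (78.7 to 94.0%) of old AEC, and by 15.7% (8.11 to 26.4%) of young and 28.6% (18.4 to 40.6%) of old SEC. Gja4 was carried by 48.2% of young and 59.8% of old AEC, against 2 of 70 young and 12 of 70 old SEC. Among young AEC of run 4, 65.2% (42.7 to 83.6%) carried Efnb2, 34.8% Gja4 and 13.04% Bmx. Gja5 was in 28.9% and Bmx in 26.5% of young AEC, and each was in 41.5% (30.7 to 52.9%) of old AEC. These 2 genes were thus in a minority of AEC at both ages, and the intervals of the ages overlap for all 4 genes.

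Nr2f2 was carried by 94.3% (86.0 to 98.4%) of young and 82.9% (72.0 to 90.8%) of old SEC, and by 38.6% (28.1 to 49.9%) of young and 26.8% (17.6 to 37.8%) of old AEC. In run 4 it was carried by 52.2% (30.6 to 73.2%) of young and 30.4% (13.2 to 52.9%) of old AEC. Sox18 was in 98.6% of young and 88.6% of old SEC, and in 80.7% and 74.4% of AEC. Emcn was in 83.1 to 95.7% of the cells of the 4 groups and Ephb4 in 73.5 to 91.4%. Sox17 was in 74.7% of young and 79.3% of old AEC, and in 31.4% and 41.4% of SEC. Sox7 was in 80.7% and 75.6% of AEC, and in 41.4% and 48.6% of SEC.

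Mesenchymal cells gave the background for these shares, at a median of 525508 total counts per cell against 348881 in endothelial cells. Of 349 thinned mesenchymal cells, 0.573% carried Sox17, 1.43% Sox18, 2.01% Gja5, 2.87% Gja4, and 4.30% each Sox7 and Emcn. The Gja4 share of young SEC, 2.86%, lay at that background. Bmx was in 7.45% of mesenchymal cells, above its 2.86% in young and in old SEC. Nr2f2 (18.6%, interval 14.7 to 23.1%), Efnb2 (interval 17.03 to 25.9%) and Ephb4 (32.4%) were not endothelial alone, and the Efnb2 share of young SEC was below the mesenchymal one.

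Some cells held arterial and venous genes together. Efnb2 and Ephb4, ligand and receptor, were both carried by 57.8% (46.5 to 68.6%) of young AEC and 73.2% (62.2 to 82.4%) of old AEC, and by 15.7% and 25.7% of young and old SEC. Over all 307 endothelial cells the Pearson correlation of their log2(CPM + 1) values was -0.04. Nr2f2 together with any of Gja4, Gja5 and Bmx was found in 16.9% of young and 19.5% (11.6 to 29.7%) of old AEC. In young SEC the same share was 12.9% and in old SEC 17.1%, but at 10 CPM or more these fell to 5.71% and 8.45%. Across clusters, 3 of 60 cells of E3, 19 of 59 of E4 and 12 cells of E7 held such a combination, against 7 of 349 mesenchymal cells. In E2, a cluster that 1 alternative leaves out, most of the 8 cells held Nr2f2 with Gja4. At 10 CPM or more, Gja4 was in 3 of 4 young and 3 of 4 old cells of E2. Nr2f2 was in 3 of 4 young and 4 of 4 old cells there.

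The connexins overlapped in part. Of thinned AEC, 47 carried both Gja4 and Gja5, 42 carried Gja4 without Gja5, and 11 carried Gja5 without Gja4. All 4 of Gja4, Gja5, Bmx and Efnb2 were in 15.7% of young and 21.95% of old AEC, in 0 of 70 young SEC (0 to 5.13%), and in 1 of 70 old SEC. The 3 SoxF genes were all present in 53.01% of young and 51.2% of old AEC, in 14.3% (7.07 to 24.7%) of young and 28.6% (18.4 to 40.6%) of old SEC. Sox18 was the sole SoxF gene in 41.4% (29.8 to 53.8%) of young SEC, against 7.23% (2.70 to 15.1%) of young AEC.

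Seen by cluster, the 10 genes did not share one order. The study groups E3 with E4 as AEC-like and takes E7 as SEC-like, and a legend marks doublets and pericytes among the clusters, for which E1 and E2 were taken in the alternative that leaves them out. Of the 10 genes, 6 (Sox7, Gja4, Gja5, Bmx, Efnb2 and Nr2f2) are among the guide genes that built these clusters. Gja5 was highest in E3, at 462 CPM (449 to 475) in young and 643 CPM (631 to 656) in old cells, and stood at 109 and 79.9 CPM in E4. Bmx had the same order, at 145 and 217 CPM in E3 and 46.6 and 33.7 CPM in E4. Gja4 was high in both, at 694 and 442 CPM in E3 and 352 and 489 CPM in E4. The old sums mix sorts, with 6 sorted SEC among the 33 old cells of E4. In the 10 old SEC of E3 to E5, Gja4 was at 1422 CPM.

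In E5, Gja4 was at 14.8 CPM and Gja5 at 0.476 CPM (0.0982 to 1.39), 3 counts, in the 19 young cells, and in its 18 old cells 1 cell held 98.9% of the Gja5 counts. Efnb2 was at 211 CPM in young and 248 CPM in old cells of E5, against 232 and 329 CPM in E3. In young E5 one cell held 42.9% of the Efnb2 counts and 61.1% of thinned cells carried it, against 91.7% in young E3 and 96.2% in young E4. E2 held Gja4 as well, at 864 CPM (823 to 906) in 4 young and 264 CPM in 4 old cells, with Sox7 at 2.56 CPM in the young and 0 counts in the old ones.

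Of E3 to E7, Emcn was lowest in E3, at 332 CPM (321 to 343) in young and 236 CPM (229 to 244) in old cells. In E4 it was at 1082 and 743 CPM, in E5 at 1064 and 807 CPM, in E6 at 1519.6 and 991 CPM and in E7 at 684 and 609.8 CPM. Old cells had less Emcn than young ones in each of these sums, but E6 held 8 AEC and 2 SEC in young and 2 AEC and 12 SEC in old mice, and its highest cells held 41.96% and 48.9% of the counts. Nr2f2 rose over the same clusters from E3 (4.17 and 0.0624 CPM) over E4 (51.1 and 38.02 CPM) and E6 (94.6 and 101 CPM) to E7 (310.4 and 252 CPM), with 80.03 and 21.4 CPM in E5. Sox18 was highest in E6, at 767 CPM (738 to 797) and 807 CPM (781 to 834). Ephb4 was higher in old than in young cells in each of E3 to E7. It was at 139 CPM in young and 171 CPM in old cells of E3, and at 258 and 336 CPM in E7. In E5 the Ephb4 order leaned on 1 old AEC at 2960 CPM, with 909 counts. The next highest old cell of E5 was at 762 CPM.

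**Figure D3:**
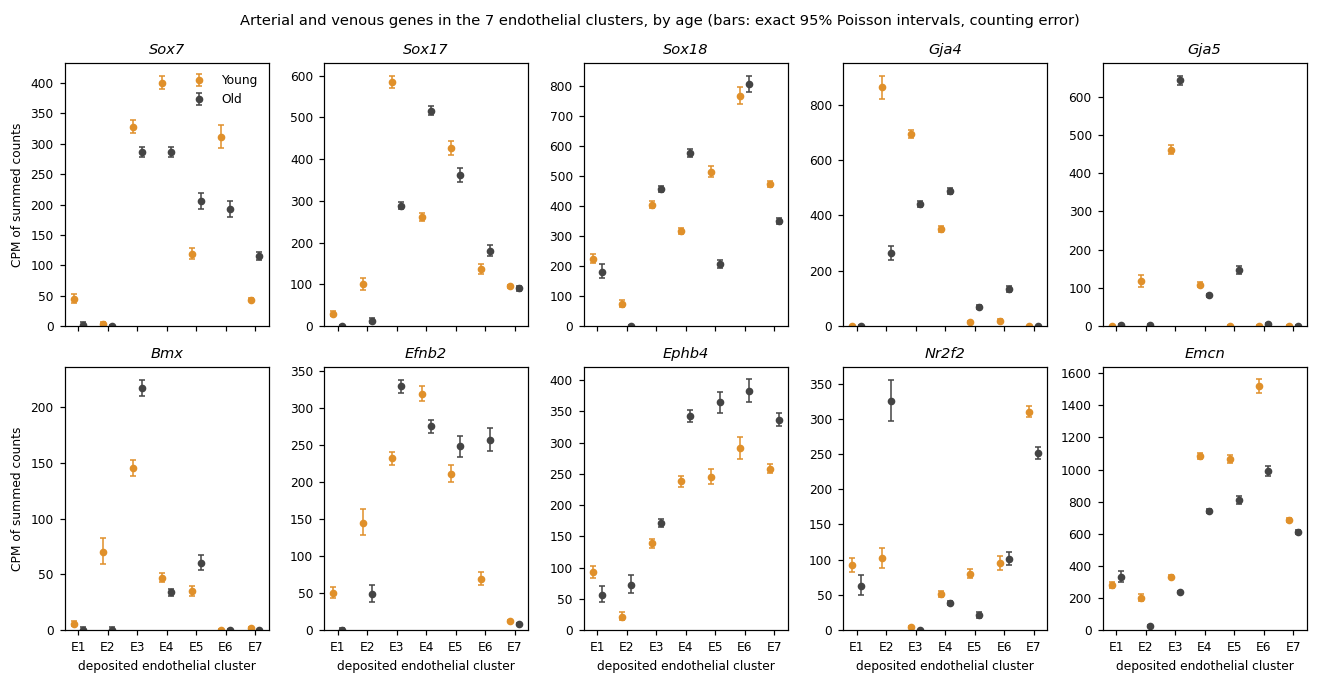
CPM of each gene in the summed counts of each deposited endothelial cluster (E1 to E7), for young and old cells, with exact 95% Poisson bars that show counting error. Gja5 and Bmx peak in E3, Efnb2 is spread over E3 to E6, Nr2f2 peaks in E7 apart from the 4 old cells of E2, and Emcn is low in E3.

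Over the 307 endothelial cells, whose values also vary with sort, run and depth, Gja5 and Bmx were the most alike pair among the 10 genes, with a Pearson correlation of 0.62 on log2(CPM + 1). It was 0.59 within AEC and 0.33 within SEC. Gja4 correlated with Efnb2 at 0.55, which was 0.27 within AEC and 0.59 within SEC. With Gja5 it was at 0.50, and at 0.42 within AEC and 0.41 within SEC. Efnb2 and Nr2f2 had the lowest value, -0.58, which was -0.28 within AEC and -0.32 within SEC. The SoxF genes were weakly related, at 0.29 for Sox7 with Sox17, 0.10 for Sox17 with Sox18 and 0.05 for Sox7 with Sox18, and in sparse counts such values are no finding.

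Among 10195 genes with 10 CPM or more in at least 30 endothelial cells, the 3 most like each member were picked by the same correlation. Gja4 was most like the semaphorin Sema3g (0.69), Aif1l (0.66) and Fbln2 (0.63), Gja5 like Bmx, Gkn3 (0.60) and Aif1l (0.58), and Bmx like Gja5, Stmn2 (0.57) and Eps8l2 (0.55). Efnb2 was most like the matrix gene Fbln2 (0.73), Cav1 (0.70) and Podxl (0.69). Nr2f2 was most like Gpm6a (0.73) and the selectins Sele (0.70) and Selp (0.70), and Sox17 like Sema3g, Fbln2 and Ly6c1 (0.50 each). Sox7 had lower values with Fbln2 (0.47), Cdh13 (0.44) and Emp1 (0.42), as had Emcn with the VEGF receptor gene Kdr (0.52), Ets2 (0.48) and Cd300lg (0.46). Sox18 was most like Ushbp1 (0.44), Mmrn2 (0.42) and Ramp2 (0.42), and Ephb4 like Shank3 (0.35), Scarb1 (0.34) and Ushbp1 (0.34). The genes most like Sox18, Ephb4 and Emcn were not guide genes of the clusters, and those most like the other 7 were.

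Families of the 10 genes showed which relatives were measured. Among 11 other Sox genes, 5 were tested in young mice, and Sox13 was past 2-fold higher in young AEC than in SEC (202 against 20.7 CPM, log2 ratio 3.23) while Sox6 was past 2-fold lower. Among 16 other connexins, 3 were tested, and Gjc1 was past 2-fold higher in young AEC (39.6 against 1.46 CPM, log2 ratio 4.04). Summed mural markers were higher in young AEC of run 4 too, at 2910 CPM against 145 CPM in young SEC. The part of mural cells in Gjc1 was not tested. Gja1 was at 317 CPM in AEC and 502 CPM in SEC, within 2-fold. Of 18 other ephrins and Eph receptors, 9 were tested, with 3 higher and 3 lower, where 17.3% and 24.9% of all genes were. Epha4 was among the higher ones, at 45.4 against 6.61 CPM. Nr2f1, the close relative of Nr2f2, was lower in AEC too, at 7.73 against 21.8 CPM, and of 4 other Tec kinases 1 was tested and was within 2-fold.

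The wider arterial list held 28 other genes, such as Notch ligands and their targets. In young mice 25 were tested, 13 were past 2-fold higher in AEC and 1 was lower, against 17.3% and 24.9% of all genes, with a median log2 ratio of 1.08 against -0.10 for all genes. The Notch ligand gene Dll4 was at 819 CPM in young AEC of run 4 and 143 CPM in young SEC, and the Notch target Hey1 at 61.4 and 0.593 CPM. In old mice 13 of 27 were higher and 2 lower, against 15.3% and 27.6% of all genes. Between ages, 9 of 25 were past 2-fold higher in old SEC and 1 lower, against 13.1% and 7.56% of all genes, with a median of 0.79 against 0.05 for all genes, and Hey1 (log2 ratio 4.33), Stmn2 (4.59) and Sema3g (3.60) were among the 9. Of the 5491 Sema3g counts of old SEC, 3977 came from the 10 cells in E3 to E5 and 1492 from the 12 in E6. Within E7, Sema3g was at 24.4 CPM in young and 1.55 CPM in old SEC. There 1 young cell held 61.4% of the 440 young counts and 4 of 59 young cells reached 10 CPM. The old value rests on 20 counts. In AEC 1 of 28 was higher and 1 lower with age, against 9.33% and 11.7% of all genes.

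The venous and sinusoidal list held 25 genes, of which 24 were in the table and 21 were tested. In young mice 12 were past 2-fold higher in SEC and 3 higher in AEC, against 24.9% and 17.3% of all genes, with a median log2 ratio of -1.65, and in old mice 16 and 1, against 27.6% and 15.3%, with a median of -2.21. The scavenger receptor gene Stab2 was at 7177 CPM in young SEC and 798 CPM in young AEC of run 4, where 1 cell held 38.1% of the counts. In AEC 8 of the 21 were past 2-fold lower with age and 0 higher, against 11.7% and 9.33% of all genes, with a median of -0.81 against -0.03. Clusters E6 and E7 held 8 and 2 young AEC against 2 and 0 old AEC, and those 8 and 2 young AEC held 2900 and 3910 of the 7557 Stab2 counts of young AEC. In SEC 0 of 21 were lower and 3 higher, against 7.56% and 13.1% of all genes.

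Markers of other cells were read beside these values. All 10 core endothelial genes were above 10 CPM in each of the 4 groups, with summed levels from 9809 CPM in young SEC to 11561 CPM in old AEC, and Cldn5 was the most abundant. The 8 mural markers summed to 1876 CPM in young AEC, 1748 in old AEC, 145 in young SEC and 447 in old SEC, led by Acta2 in AEC, Pdgfrb in young SEC and Rgs5 in old SEC. These AEC sums are over all runs, and in run 4 they were 2910 CPM in young and 4235 CPM in old AEC. Within run 4, 5 of 6 tested mural markers were past 2-fold higher in young AEC than in young SEC. In old mice these were 6 of 7, against 17.3% of all genes in young and 15.3% in old mice. Cspg4 was at 0 in young SEC.

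The 10 mesenchymal markers summed to 2488 CPM in young AEC, 3081 in old AEC, 6717 in young SEC and 4135 in old SEC, with no marker at 0. Cxcl12 alone made 2343, 2855, 5519 and 3570 CPM of these sums. The 10 hematopoietic markers summed to 29.8, 23.3, 76.4 and 215 CPM in the same order, led by Fcer1g, with Cd3e at 0 in all groups but young SEC and Cd52 at 0 in young AEC. The 3 lymphatic markers summed to 13.7, 2.87, 8.30 and 12.1 CPM, led by Prox1 in all groups but old AEC, where Pdpn led, with Ccl21a at 0 in all groups and Pdpn at 0 in old SEC. Leaving out 32 endothelial cells that carried at least 50% of the mesenchymal or of the mural markers, an alternative chosen after the marker levels were seen, left the 5 genes past 2-fold higher in old SEC at 5. Of the 10 old SEC in E3 to E5 and the 12 in E6, 0 met that limit. So this alternative could not remove their counts, and it did not use hematopoietic markers. Without the 32 cells the old over young AEC log2 ratio of Nr2f2 was -1.32.

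Upstream sequence was at hand for 7 of the 10 genes and not for Sox7, Sox17 and Sox18. The promoters of Gja4, Gja5, Bmx and Efnb2 are shown because all 4 genes were past 2-fold higher in young AEC than in young SEC and the SoxF genes are members too. Each run is the 250 bases before the RefSeq gene start on the gene's own strand, 5′ to 3′, in GRCm38.p6, and capitals mark ACAAT and ACAAAG, core letters of SOX-type sites, on either strand. They cover chr4:127314040-127314289 on the minus strand (Gja4), chr3:97032152-97032401 on the plus strand (Gja5), chrX:164258194-164258443 on the minus strand (Bmx) and chr8:8661243-8661492 on the minus strand (Efnb2).
Gja4: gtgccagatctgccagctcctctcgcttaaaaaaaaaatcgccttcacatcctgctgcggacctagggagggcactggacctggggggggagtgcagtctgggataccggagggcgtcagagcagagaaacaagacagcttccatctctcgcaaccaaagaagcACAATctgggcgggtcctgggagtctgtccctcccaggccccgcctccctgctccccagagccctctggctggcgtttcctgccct
Gja5: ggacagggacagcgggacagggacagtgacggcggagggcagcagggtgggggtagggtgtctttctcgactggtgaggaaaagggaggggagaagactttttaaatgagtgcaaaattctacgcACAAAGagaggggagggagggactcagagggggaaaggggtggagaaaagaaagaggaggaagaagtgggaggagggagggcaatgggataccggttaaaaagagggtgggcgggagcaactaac
Bmx: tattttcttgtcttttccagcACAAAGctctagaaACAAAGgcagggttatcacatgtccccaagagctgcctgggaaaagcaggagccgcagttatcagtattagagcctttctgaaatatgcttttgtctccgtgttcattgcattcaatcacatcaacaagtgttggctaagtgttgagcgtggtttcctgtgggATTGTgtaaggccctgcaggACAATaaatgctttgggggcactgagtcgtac
Efnb2: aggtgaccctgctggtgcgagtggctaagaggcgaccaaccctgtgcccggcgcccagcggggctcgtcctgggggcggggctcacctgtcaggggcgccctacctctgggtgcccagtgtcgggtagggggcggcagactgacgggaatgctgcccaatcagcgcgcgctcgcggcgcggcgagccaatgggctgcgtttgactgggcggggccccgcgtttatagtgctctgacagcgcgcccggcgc

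ACAAT or its reverse complement was found 1 time for Gja4, 2 times for Bmx and 0 times for Gja5 and Efnb2, and is held by 27.7% of 32851 mouse promoters of the same length. ACAAAG was found 1 time for Gja5, 2 times for Bmx and 0 times for Gja4 and Efnb2, and is held by 16.5% of them. Emcn had ACAAT 1 time, and Ephb4 and Nr2f2 had neither. The ETS core GGAA was in all 7, as in 93.4% of all promoters, and CACGTG and AGATAA were in none of the 7, against 6.02% and 9.99% of all promoters. A match is a description of these letters and says nothing of binding, and the Gja5 window lies inside the longer GENCODE gene.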

How the data were processed

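The authors sequenced single cells with Smart-Seq2, aligned reads with GSNAP to GRCm38.p4, counted reads per Ensembl 81 gene with HTSeq without strand, and kept cells with at least 100000 reads and under 20% mitochondrial reads. They deposited raw read counts for 661 cells, with clusters named in the labels.

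Here repeated symbols (270) were summed and 37 mitochondrial genes left out of totals. Counts of the cells of a group were summed and given as CPM, with log2(CPM + 1) ratios and a 2-fold limit. The filter on low genes was 100 counts over both groups in 5 cells. A count of 0 allows up to 3 counts. A new run of library numbers began at a gap of over 100, which gave 4 runs of AEC. Cells were thinned to 100000 nuclear counts with a fixed seed, which left out 7 of 661 cells. The scripts were tested on simulated data. Intervals were computed with scipy 1.17.1 and figures drawn with matplotlib 3.10.9, under Python 3.11.15. Tables were handled by pandas 2.3.3 on numpy 2.4.6.

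Named genes were the 10 members, the genes of the lists and the 3 genes most correlated with each member. The members and lists were chosen with earlier results of these data known. The listed symbol Darc was not matched to an entry. Alternatives covered scaling, thinning, the pseudocount, the filter, clusters in place of sorts, cells left out and runs.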

Additional observations from a re-analysis of the deposited data

How the results depend on the processing

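No paired analysis was possible because the labels name no mouse, the numbers in them name single cells and each group is 1 sample. AEC of both ages were compared within each of the 4 runs instead, without a test. Of the 7 genes past 2-fold between young AEC and young SEC, all 70 values under 10 alternatives kept their direction and were past 2-fold. For the 5 genes in old mice, all 50 values kept their direction and 1 was within 2-fold. For the 5 genes past 2-fold higher in old SEC, 42 of 45 values kept their direction and 3 of these were within 2-fold. The cause was not tested. Leaving out cells with markers of another lineage was 1 alternative chosen after seeing the data.

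With deposited clusters in place of sorts, old over young log2 ratios in E7 were -0.0734 for Sox17, -0.0930 for Gja5 and -0.60 for Efnb2, and the members past 2-fold between ages in E7 were 1 higher and 1 lower, in place of 5 and 0. In E7 these were Sox7 and Bmx (-1.53, on 39 and 1 counts). Between E3 with E4 and E7 in run 4, 2 genes were past 2-fold higher in E7 at each age, in place of 1. Sox18 was added in young and Emcn in old mice. The old cells of E3 and E4 in run 4 mix sorts, with 2 and 6 sorted SEC. The young cells of E3 and E4 in run 4 are only a part of its 24 young AEC. Leaving out the highest cell of each group also gave 2 at each age in place of 1, with Sox18 the added gene.

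For old over young AEC, where the counts were 0 and 0, run 1 gave 2 higher and 2 lower, run 2 gave 1 higher, and run 4 gave 1 higher and 1 lower. Leaving out clusters E1 and E2, or the cells with markers of another lineage, each gave 1 lower, which was Nr2f2. At 10 CPM or more, the share of cells with Nr2f2 and any of Gja4, Gja5 and Bmx was 5.71% in young and 8.45% in old SEC, in place of 12.9% and 17.1%. The connexin values of young SEC rest on 66 counts of Gja4 and 15 of Gja5.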

Other observations

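Outside the endothelium, several of the 10 genes had levels of their own. Bmx was at 22.5 CPM in young MSC-L, the label of one mesenchymal population, and 20.8% of their thinned cells carried it, against 12.8 CPM and 17.9% in old MSC-L. In young and old MSC-S it was at 0 and 0.0255 CPM. In old OPr cells Bmx reached 74.1 CPM (70.5 to 77.9), of which 1 cell held 66.4%. Efnb2 was split the other way, at 43.5 CPM in young and 31.9 CPM in old MSC-S and at 0.0877 and 0.205 CPM in young and old MSC-L. Ephb4 was at 41.4 and 36.8 CPM in young and old MSC-L, and Nr2f2 at 15.1 CPM in young and 40.1 CPM in old MSC-S. Ligand and receptor genes Efnb2 and Ephb4 thus had their higher levels in different mesenchymal populations. Sox17 and Sox18 were under 0.5 CPM in all of them.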
